A study of Arabidopsis thaliana with 30 samples.

Results

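The cytokinin genes followed here, 10 in number, make, activate, degrade or transport the hormone and were measured across shoots and roots of Arabidopsis thaliana seedlings. They were 10 of the 21227 genes that a single-gene probe set stood for in the deposited tables. They were chosen by locus: the isopentenyltransferases IPT3 (AT3G63110), IPT5 (AT5G19040) and IPT7 (AT3G23630), the cytochrome P450 genes CYP735A1 (AT5G38450) and CYP735A2 (AT1G67110), the activating enzymes LOG1 (AT2G28305) and LOG7 (AT5G06300), the oxidases CKX4 (AT4G29740) and CKX5 (AT1G75450), and the transporter ABCG14 (AT1G31770). The choice was made with earlier results of these data known. Counts of these genes set beside the share of all probe sets are therefore a description and no independent test. Each of the 10 had 1 probe set. All of them passed the filter on low values in roots, and 6 passed it in shoots.

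Seedlings were 10 days old when shoots and roots were taken, and each of 5 groups had 3 arrays per tissue. Sufficient wild type (Col-0) was kept for 3 days on plates with 5 mM ammonium nitrate, after a move at 7 days. Starved wild type and a starved AtNIGT1.2 overexpressor spent those 3 days without any nitrogen source. The remaining groups came from a line with an inducible AtNIGT1.2-VP fusion, transferred when 9 days old to medium holding 5 mM ammonium nitrate and given estradiol, labelled as 10 mM, or none (mock) for 24 h. AtNIGT1.2 is a GARP-type transcription factor whose target genes the study set out to find; the labels do not spell out VP, the promoter of the overexpressor or the number of independent lines. No wild type with estradiol was among the groups, so the effects of estradiol and of the fusion cannot be told apart.

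Cytokinins are adenine-derived hormones that promote cell division and shoot growth and report the nitrogen supply from root to shoot. IPT enzymes attach the isoprenoid side chain to adenine nucleotides, CYP735A enzymes hydroxylate it to the trans-zeatin type, and LOG enzymes release the active free base. CKX enzymes cleave the side chain irreversibly, and ABCG14 moves trans-zeatin-type cytokinins made in the root towards the shoot. IPT3 and CYP735A2 are known to respond to nitrate, and CKX4 to cytokinin itself.

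The AtNIGT1.2 transcript (AT1G68670) checked the labels. In roots it lay between 13.60 and 13.75 on the log2 scale in the overexpressor against 7.74 to 7.89 in starved wild type, and between 13.29 and 13.38 with estradiol against 9.17 to 9.23 in mock. In shoots the corresponding ranges were 13.82 to 13.97 against 6.39 to 8.07, and 12.38 to 12.63 against 9.48 to 9.64. Markers fitted the tissue labels, though not cleanly. The measured shoot markers LHCB3 and RCA, 2 of 6 listed, lay above the 99th percentile of probe sets in every shoot group. In roots their percentiles were 88.16 to 88.19 in sufficient wild type, 66.1 to 68.6 in starved wild type and 32.2 to 53.4 in the overexpressor. They were 74.8 to 78.8 in mock roots and 61.0 to 72.9 with estradiol. The 6 root markers had median percentiles of 71.2 to 84.2 in root groups against 30.4 to 36.0 in shoot groups. The highest of these 6 still reached 94.2 to 98.9 in shoot groups. Levels are not compared between tissues, whose tables were treated as normalized separately, nor between genes.

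In overexpressor roots both LOG genes, both CKX genes, IPT3 and CYP735A2 were lower than in starved wild type. In roots of the VP line both LOG genes and CKX5 rose with estradiol, while CKX4, CYP735A1 and all 3 IPT genes fell. The falls of IPT3 and IPT7 with estradiol no longer passed the test when certain single arrays were left out. A gene was called at an adjusted p under 0.05 (limma, Benjamini-Hochberg over all probe sets tested). With nitrogen starvation in wild type roots 4 of the 10 genes rose and 6 fell, where 54.8% of all probe sets were called, 33.1% higher and 21.8% lower; the median log2 fold change was -0.49 over the 10 genes and 0.06 over all probe sets. In overexpressor roots 6 were lower and 1 was higher than in starved wild type (38.1% of all probe sets called, 21.4% higher and 16.7% lower), with medians of -0.54 and 0.03. With AtNIGT1.2-VP induction in roots 3 rose and 5 fell (43.9% of all probe sets called, 15.6% higher and 28.3% lower), with medians of -0.25 and -0.07. In shoots 2 of the 6 genes tested rose and 2 fell with starvation, where 54.1% of all probe sets were called, 27.8% higher and 26.3% lower. In overexpressor shoots 4 were lower and 1 was higher (51.3% called, 30.6% higher and 20.7% lower), and with induction in shoots 2 rose and 2 fell (49.3% called, 23.8% higher and 25.5% lower). Starved wild type enters both of the first comparisons, so their fold changes share 3 arrays, while the VP comparison shares none with either. Measured in whole organs, a lower level may be fewer cells of a type or less RNA per cell, which cannot be told apart.

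**Figure D1:**
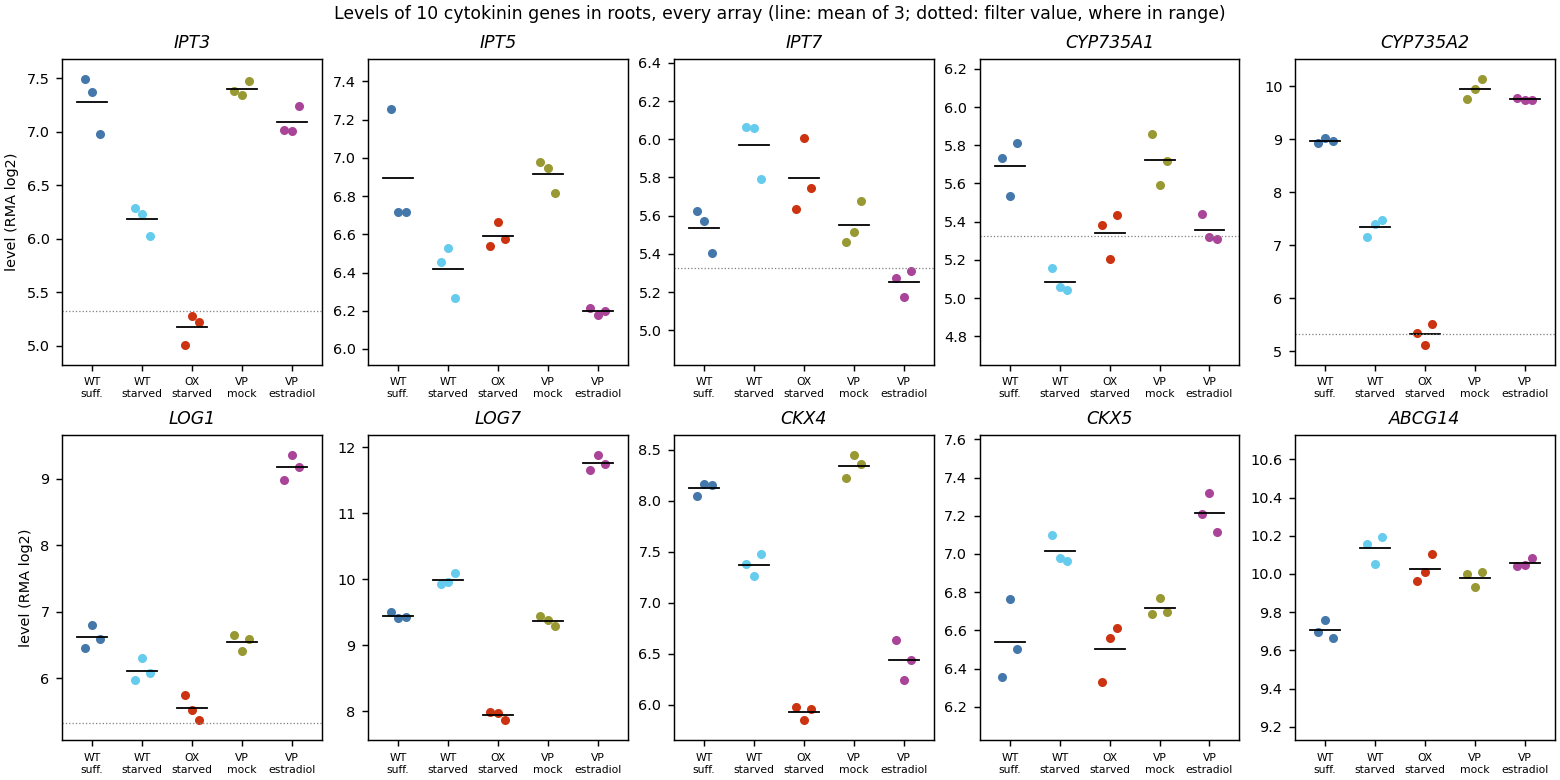
Log2 levels of the 10 genes in roots, with a point for each of the 3 arrays of the 5 groups (suff., sufficient; WT, wild type; OX, overexpressor) and a line at the group mean; the axes differ between panels and do not start at 0, and the dotted line is the filter value of 5.33. CYP735A2 and IPT3 are lowest in the overexpressor, LOG1 and LOG7 are highest with estradiol, and CKX4 is low in both.

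IPT3, the isopentenyltransferase gene best known for its nitrate response, fell with starvation in roots and was lower still in the overexpressor. Its root levels were 7.49, 7.37 and 6.98 in sufficient wild type, 6.29, 6.23 and 6.02 in starved wild type, and 5.01, 5.28 and 5.22 in the overexpressor. These 3 groups did not overlap. The fall with starvation was -1.10 ± 0.12 on the log2 scale (fit estimate ± standard error; 2.14-fold, adjusted p = 6.66e-08), and the overexpressor was a further -1.01 ± 0.12 from starved wild type (2.02-fold, adjusted p = 4.78e-07). All 3 overexpressor values lay below the filter value of 5.33, so that fold may be understated. Levels of 7.39, 7.34 and 7.47 in mock and 7.02, 7.01 and 7.24 with estradiol gave a smaller fall of 0.31 ± 0.12 (adjusted p = 0.0321). That call was lost after quantile normalization (adjusted p = 0.0611), and without estradiol array 1 (adjusted p = 0.102) or 2 (adjusted p = 0.115) or mock array 1 (adjusted p = 0.064) or 3 (adjusted p = 0.103).

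IPT5 and IPT7, further adenylate isopentenyltransferases, moved in opposite directions with starvation in roots and together with induction. IPT5 lay at 7.26, 6.72 and 6.71 in sufficient wild type, 6.46, 6.53 and 6.27 in starved wild type, 6.54, 6.66 and 6.58 in the overexpressor, 6.98, 6.95 and 6.82 in mock and 6.22, 6.18 and 6.20 with estradiol. It fell by 0.48 ± 0.11 with starvation (adjusted p = 0.00131) and by 0.72 ± 0.11 with induction (adjusted p = 2.37e-05), and the estradiol arrays were the lowest 3 of the 15. The overexpressor differed from starved wild type by 0.17 ± 0.11 (95% interval -0.06 to 0.41, adjusted p = 0.243).

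IPT7 had group means of 5.54 ± 0.11 (SD, n = 3) in sufficient and 5.97 ± 0.16 in starved wild type, 5.80 ± 0.19 in the overexpressor, 5.55 ± 0.11 in mock and 5.25 ± 0.07 with estradiol. It rose by 0.44 ± 0.10 with starvation (adjusted p = 0.00137). With induction it fell by 0.30 ± 0.10 (adjusted p = 0.0245), a call lost without estradiol array 2 (adjusted p = 0.0987) or mock array 3 (adjusted p = 0.116). In the overexpressor the difference was -0.18 ± 0.10 (95% interval -0.39 to 0.04, adjusted p = 0.197), and the values overlapped those of starved wild type.

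CYP735A2, the main hydroxylase of trans-zeatin synthesis in roots, had the widest range of group means of the 10 genes in roots, 4.61 on the log2 scale. It lay at 8.92, 9.03 and 8.97 in sufficient wild type, 7.16, 7.39 and 7.47 in starved wild type and 5.35, 5.12 and 5.51 in the overexpressor. The mock-treated VP line was at 9.76, 9.94 and 10.13, and the estradiol arrays were at 9.78, 9.73 and 9.74. From lowest to highest the order was overexpressor, starved wild type, sufficient wild type, estradiol and mock, and only the last 2 overlapped. Starvation lowered it by 1.63 ± 0.10 (3.09-fold, adjusted p = 1.1e-11) and the overexpressor by a further 2.01 ± 0.10 (4.04-fold, adjusted p = 7.24e-13). The overexpressor mean of 5.33 equals the filter value to 2 decimals, a low level at which part of that fold may be hidden. The filter value is a percentile of mean levels and not a measured floor of the signal. Induction changed it by -0.19 ± 0.10 (95% interval -0.40 to 0.01, adjusted p = 0.12); without mock array 1 the value was -0.28 ± 0.10 and passed (adjusted p = 0.0359).

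CYP735A1, the second hydroxylase gene, varied less. Its root means were 5.69 ± 0.14 in sufficient wild type, 5.09 ± 0.06 in starved wild type, 5.34 ± 0.12 in the overexpressor, 5.72 ± 0.14 in mock and 5.36 ± 0.07 with estradiol, so it lay near the filter value and below it in starved wild type. It fell by 0.61 ± 0.09 with starvation (adjusted p = 1.58e-05) and by 0.37 ± 0.09 with induction (adjusted p = 0.00333). In the overexpressor it was 0.26 ± 0.09 higher than in starved wild type (adjusted p = 0.0386), the only one of the 10 genes called higher there. This call was lost with only those 2 groups in the fit (adjusted p = 0.0545), and without overexpressor array 1 (adjusted p = 0.0971) or 3 (adjusted p = 0.139) or starved wild type array 2 (adjusted p = 0.0872) or 3 (adjusted p = 0.109).

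LOG1 and LOG7, phosphoribohydrolases that turn cytokinin nucleotides into free bases, were lower in overexpressor roots and several-fold higher after induction. LOG7 lay at 9.50, 9.41 and 9.43 in sufficient wild type, 9.92, 9.96 and 10.09 in starved wild type, 7.99, 7.98 and 7.86 in the overexpressor, 9.44, 9.39 and 9.29 in mock and 11.65, 11.89 and 11.74 with estradiol. The overexpressor and estradiol arrays were the lowest 3 and the highest 3 of the 15, outside every wild type value. The overexpressor was 2.05 ± 0.07 below starved wild type (4.14-fold, adjusted p = 7.44e-16), and estradiol was 2.39 ± 0.07 above mock (5.22-fold, adjusted p = 2.16e-17). Starvation raised LOG7 by 0.54 ± 0.07 (adjusted p = 5.26e-07).

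LOG1 lay at 6.45, 6.79 and 6.59 in sufficient wild type, 5.97, 6.30 and 6.07 in starved wild type, 5.76, 5.52 and 5.37 in the overexpressor, 6.65, 6.41 and 6.58 in mock and 8.98, 9.36 and 9.18 with estradiol. Only the estradiol arrays rose above the wild type range. The rise was 2.63 ± 0.12 (6.17-fold, adjusted p = 1.07e-13), against falls of 0.50 ± 0.12 with starvation (adjusted p = 0.00141) and 0.57 ± 0.12 in the overexpressor (adjusted p = 0.000733). LOG1 and LOG7 thus moved apart with starvation, LOG1 down and LOG7 up.

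CKX4, an oxidase gene that cytokinin induces, fell in all 3 comparisons in roots. It lay at 8.05, 8.17 and 8.15 in sufficient wild type, 7.38, 7.26 and 7.47 in starved wild type, 5.98, 5.84 and 5.95 in the overexpressor, 8.22, 8.45 and 8.36 in mock and 6.63, 6.24 and 6.43 with estradiol. No neighbouring groups in this order of levels overlapped: overexpressor, estradiol, starved wild type, sufficient wild type, mock. The changes were -0.75 ± 0.09 with starvation (adjusted p = 8.7e-07), -1.45 ± 0.09 in the overexpressor (2.73-fold, adjusted p = 7.52e-11) and -1.91 ± 0.09 with induction (3.75-fold, adjusted p = 4.44e-13).

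CKX5, another oxidase gene, followed LOG7 in direction in all 3 root comparisons, with smaller changes. It lay at 6.36, 6.76 and 6.50 in sufficient wild type, 7.10, 6.98 and 6.96 in starved wild type, 6.33, 6.56 and 6.61 in the overexpressor, 6.69, 6.77 and 6.70 in mock and 7.21, 7.32 and 7.11 with estradiol. It rose by 0.47 ± 0.10 with starvation (adjusted p = 0.000416) and by 0.50 ± 0.10 with induction (adjusted p = 0.000357), and was 0.51 ± 0.10 lower in the overexpressor than in starved wild type (adjusted p = 0.000354, a change of -0.51). Sufficient wild type overlapped its neighbours in level, the overexpressor and mock, which did not overlap each other.

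ABCG14, the exporter, had the narrowest range of group means in roots, 0.43. Its means were 9.71 ± 0.05 in sufficient wild type, 10.13 ± 0.08 in starved wild type, 10.03 ± 0.07 in the overexpressor, 9.98 ± 0.04 in mock and 10.06 ± 0.02 with estradiol. It rose by 0.43 ± 0.05 with starvation (adjusted p = 7.78e-07). The overexpressor (-0.11 ± 0.05, adjusted p = 0.121) and induction (0.078 ± 0.053, adjusted p = 0.25) did not pass; without starved wild type array 2 the overexpressor value was -0.15 ± 0.06 and passed (adjusted p = 0.0429).

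Markers of other tissue moved with these root groups. In roots the unlogged signals of LHCB3 and RCA were summed and put on the log2 scale. This value was 10.66 to 10.74 in sufficient and 9.16 to 9.21 in starved wild type. It was 7.57 to 7.71 in the overexpressor, 9.67 to 9.93 in mock and 9.08 to 9.21 with estradiol. Both genes were called lower in each root comparison. Of the 6 root markers, 3 rose and 2 fell with starvation, where 33.1% of all probe sets rose and 21.8% fell. In the overexpressor 2 were lower, as were 16.7% of all probe sets. With induction 4 fell (28.3% of all probe sets did), led by the aquaporin gene TIP2;3 (-2.13 ± 0.12) and the Casparian strip gene CASP1 (-0.70 ± 0.05). Their part in the results on the 10 genes was not tested.

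**Figure D2:**
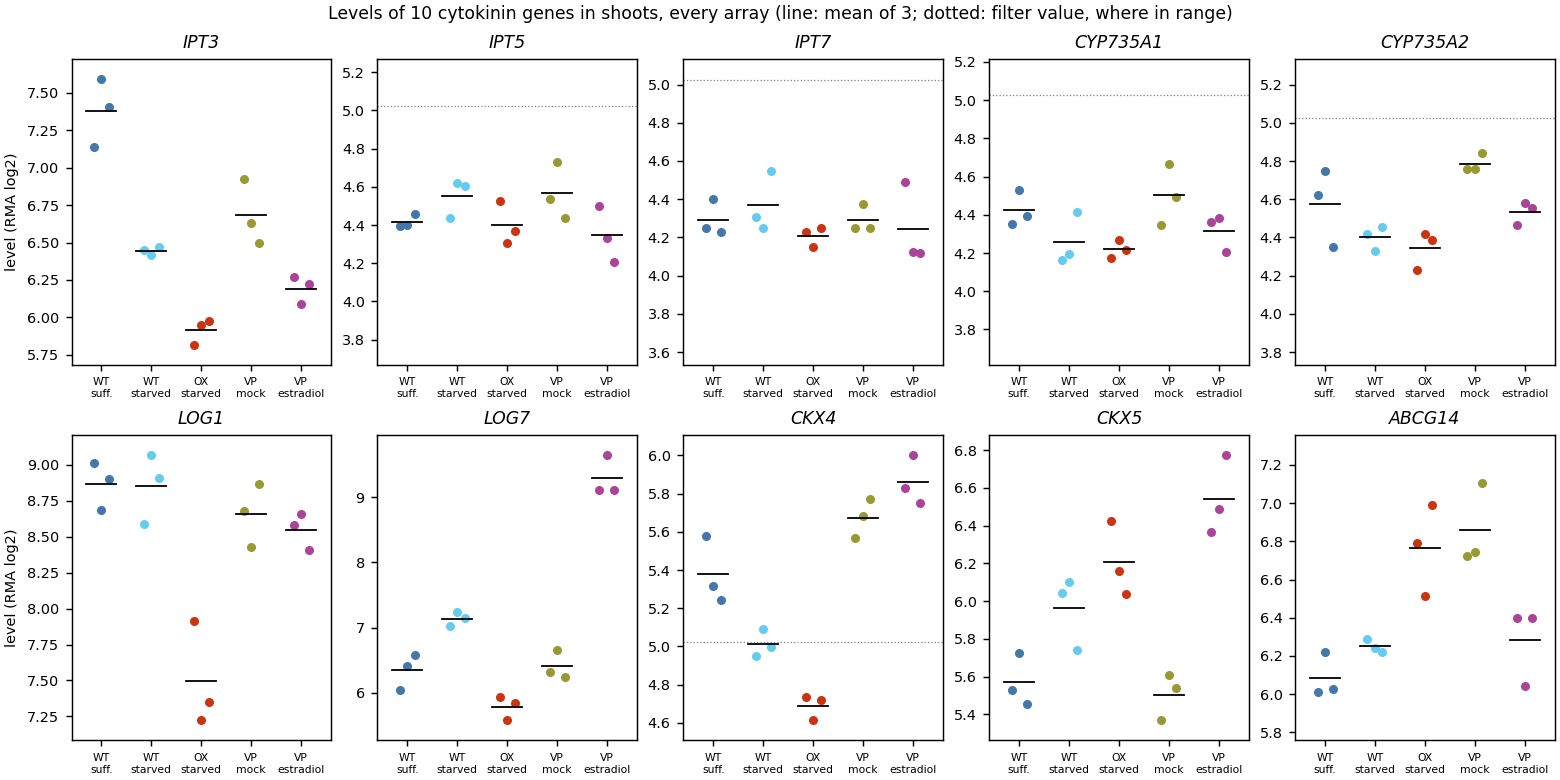
Log2 levels of the 10 genes in shoots, drawn as for roots, with the filter value of 5.03 dotted where it falls in a panel. LOG7 is highest with estradiol and LOG1 lowest in the overexpressor, while IPT5, IPT7, CYP735A1 and CYP735A2 lie below the filter value in all 15 arrays.

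In shoots IPT5, IPT7 and both CYP735A genes lay below the filter value of 5.03 on every array, with means over the 15 arrays of 4.46, 4.28, 4.34 and 4.53, and were not tested in the main fit. CKX4, at 5.32, was the lowest that passed, and its starved and overexpressor means of 5.01 and 4.69 were themselves below the filter value. When no filter was applied, 15 of the 16 comparisons of these 4 genes did not pass. The exception was CYP735A2, which fell by 0.25 ± 0.09 with induction (adjusted p = 0.043), from 4.76, 4.76 and 4.84 in mock to 4.47, 4.58 and 4.55.

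IPT3 fell in each shoot comparison. It lay at 7.14, 7.59 and 7.40 in sufficient wild type, 6.45, 6.41 and 6.47 in starved wild type, 5.82, 5.95 and 5.98 in the overexpressor, 6.93, 6.63 and 6.50 in mock and 6.27, 6.09 and 6.22 with estradiol. No neighbouring groups overlapped, from the overexpressor through estradiol, starved wild type and mock to sufficient wild type. The changes were -0.93 ± 0.12 with starvation (1.91-fold, adjusted p = 6.84e-06), -0.53 ± 0.12 in the overexpressor (adjusted p = 0.00162) and -0.49 ± 0.12 with induction (adjusted p = 0.00299).

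LOG7 was lower in overexpressor shoots and rose 7.41-fold after induction. It lay at 6.05, 6.42 and 6.57 in sufficient wild type, 7.03, 7.23 and 7.15 in starved wild type, 5.94, 5.57 and 5.84 in the overexpressor, 6.31, 6.65 and 6.25 in mock and 9.12, 9.66 and 9.11 with estradiol. The estradiol arrays stood over 1 log2 unit above every other shoot array. The changes were 2.89 ± 0.16 with induction (adjusted p = 1.36e-09), -1.35 ± 0.16 in the overexpressor (2.55-fold, adjusted p = 4.22e-06) and 0.79 ± 0.16 with starvation (adjusted p = 0.0006).

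LOG1 was lower in overexpressor shoots too, while neither starvation nor induction passed the test. It lay at 9.01, 8.69 and 8.90 in sufficient wild type, 8.59, 9.07 and 8.91 in starved wild type, 7.92, 7.22 and 7.35 in the overexpressor, 8.68, 8.43 and 8.87 in mock and 8.58, 8.66 and 8.41 with estradiol. The overexpressor differed by -1.36 ± 0.17 (2.57-fold, adjusted p = 4.87e-06). Induction gave -0.11 ± 0.17 with a 95% interval of -0.46 to 0.24 (adjusted p = 0.6), beside the root value of 2.63 with an interval of 2.38 to 2.87; the difference between the tissues was not tested.

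CKX5 rose 2.05-fold with induction in shoots, from 5.37, 5.61 and 5.54 in mock to 6.37, 6.49 and 6.78 with estradiol (1.04 ± 0.13, adjusted p = 1.17e-05). With starvation it went from 5.53, 5.73 and 5.46 to 6.04, 6.10 and 5.74, a rise of 0.39 ± 0.13 (adjusted p = 0.0203). That call was lost without starved array 1 (adjusted p = 0.0678) or 2 (adjusted p = 0.088) or sufficient array 1 (adjusted p = 0.0531) or 3 (adjusted p = 0.0817). In overexpressor shoots, at 6.42, 6.16 and 6.04, the difference from starved wild type was 0.24 ± 0.13 (95% interval -0.04 to 0.53, adjusted p = 0.143).

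CKX4 fell by 0.37 ± 0.11 with starvation in shoots (adjusted p = 0.00758), from 5.58, 5.31 and 5.24 to 4.95, 5.09 and 5.00. The overexpressor, at 4.73, 4.62 and 4.72, was -0.32 ± 0.11 from starved wild type (adjusted p = 0.0177), a call lost without overexpressor array 2 (adjusted p = 0.0642) or starved array 2 (adjusted p = 0.0686). With induction the change was 0.19 ± 0.11 (95% interval -0.04 to 0.41, adjusted p = 0.152).

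ABCG14 moved in opposite directions in the overexpressor and after induction in shoots. It lay at 6.01, 6.22 and 6.03 in sufficient wild type, 6.29, 6.24 and 6.22 in starved wild type, 6.79, 6.51 and 6.99 in the overexpressor, 6.72, 6.75 and 7.11 in mock and 6.40, 6.04 and 6.40 with estradiol. The overexpressor was 0.52 ± 0.13 higher than starved wild type (adjusted p = 0.00441) and estradiol lowered it by 0.58 ± 0.13 (adjusted p = 0.00213), to values that overlapped those of starved wild type. Mock was already 0.77 above sufficient wild type (adjusted p = 0.000466), and the estradiol values overlapped those of sufficient wild type too. Starvation gave 0.16 ± 0.13 (adjusted p = 0.32).

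**Figure D3:**
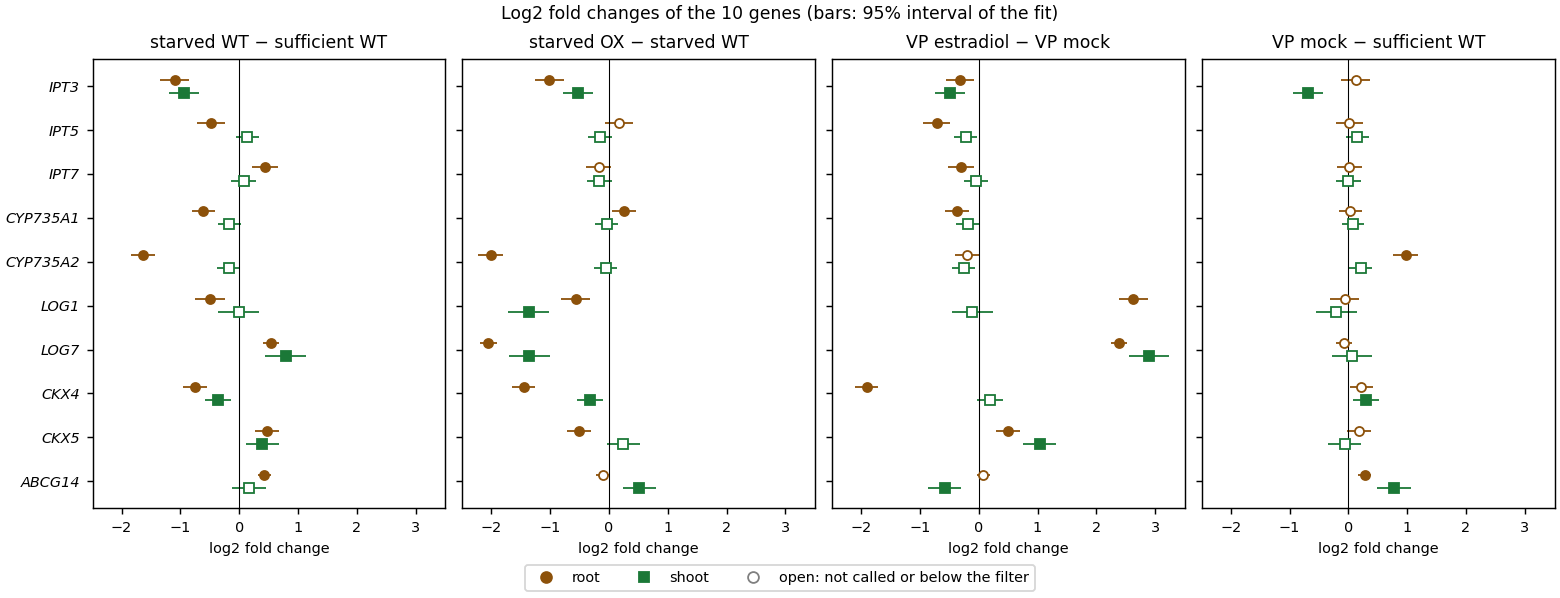
Log2 fold changes of the 10 genes in the 4 comparisons, with roots as circles, shoots as squares and bars for the 95% interval of the fit; open symbols did not pass the test or lay below the filter. With induction LOG1 in roots and LOG7 in both tissues stand above 2, and CKX4 in roots is near -1.91.

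The overexpressor and the induced VP line were compared over groups with no array in common. In roots LOG1, LOG7 and CKX5 were lower in the overexpressor and higher after induction, a combination found in 5.09% of all probe sets tested. IPT3 and CKX4 were lower in both, as were 5.34% of all probe sets, and CYP735A1 was higher in the overexpressor and lower after induction, as were 7.85%. CYP735A2 was lower in the overexpressor alone by these tests, and IPT5 and IPT7 after induction alone. The differences between the 2 comparisons themselves were not tested. Leaving out certain single arrays lost the calls of IPT3 and IPT7 with induction and of CYP735A1 in the overexpressor. Without mock array 1, CYP735A2 passed with induction as well. In shoots LOG7 was lower in the overexpressor and higher after induction (4.17% of all probe sets), ABCG14 was higher and lower (5.31%), and IPT3 was lower in both (8.65%). Higher in both were 2.34% of probe sets in roots and 10.1% in shoots. The overexpressor was starved and the VP line was not, and they also differed in the length of treatment.

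**Figure D4:**
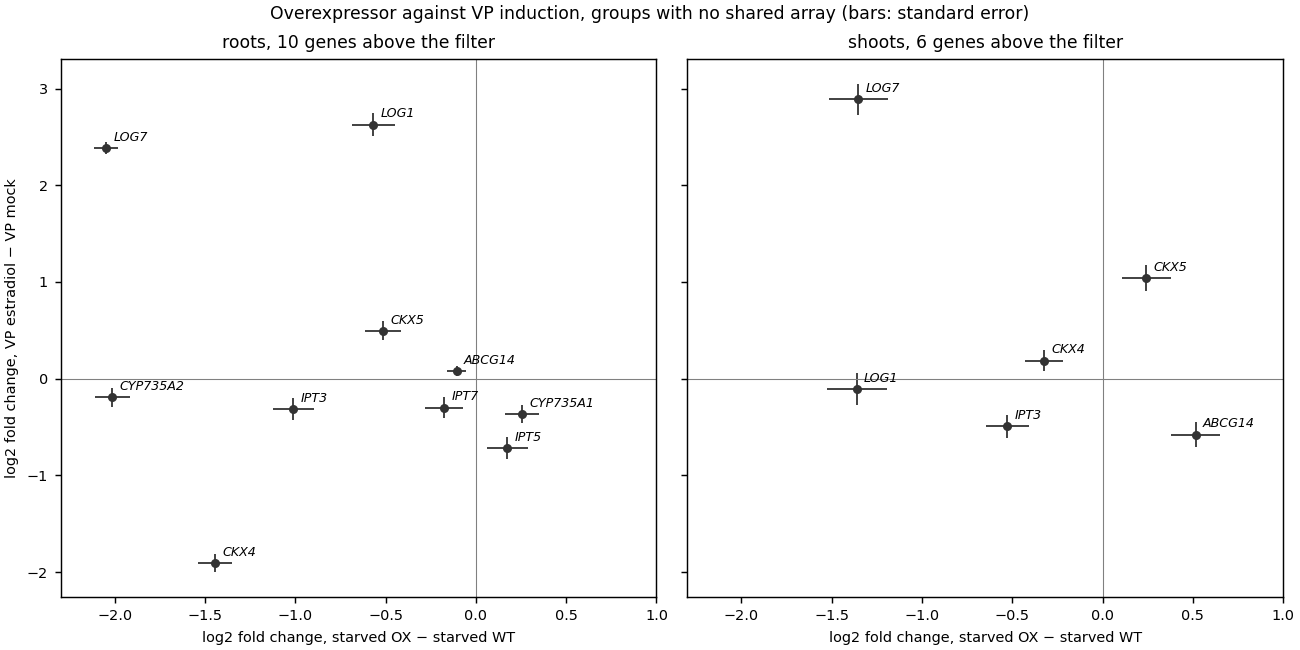
Log2 fold change in the overexpressor (horizontal) against that with AtNIGT1.2-VP induction (vertical) for the genes above the filter, 10 in roots and 6 in shoots, with standard errors as bars. LOG7 lies at the upper left in both tissues, and CKX4 in roots lies at the lower left.

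Without estradiol the VP line already differed from sufficient wild type for some of the genes. CYP735A2 was 0.97 ± 0.10 higher in mock roots (1.96-fold, adjusted p = 7.73e-07), and ABCG14 was 0.28 ± 0.05 higher (adjusted p = 0.00114); these were 2 of the 10 genes, where 18.2% of all probe sets were called, 12.1% higher and 6.1% lower. In mock shoots ABCG14 was 0.77 ± 0.13 higher (adjusted p = 0.000466) and IPT3 lower (-0.69 ± 0.12, adjusted p = 0.000463). CKX4 in shoots was 0.29 ± 0.11 higher (adjusted p = 0.0408) with overlapping groups, so that 3 of 6 genes were called where 33.4% of all probe sets were, 17.7% higher and 15.8% lower. The CKX4 call was lost with the replicate block (adjusted p = 0.0611), with quantile normalization (adjusted p = 0.0702), with only those 2 groups in the fit (adjusted p = 0.0739), and without mock array 2 (adjusted p = 0.0932) or 3 (adjusted p = 0.142) or sufficient array 2 (adjusted p = 0.117) or 3 (adjusted p = 0.165). LOG1 and LOG7 did not pass between mock and sufficient wild type, with 95% intervals of -0.31 to 0.18 and -0.21 to 0.06 in roots. The line and the later, shorter transfer cannot be told apart in this comparison.

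Other cytokinin genes were counted from the lists as a whole and one list at a time. In roots 25 of 44 tested were called with starvation (56.8%, against 54.8% of all probe sets), 23 in the overexpressor (52.3% against 38.1%) and 19 with induction (43.2% against 43.9%). In shoots 25 of 39 were called with starvation (64.1% against 54.1%), 21 in the overexpressor (53.8% against 51.3%) and 20 with induction (51.3% against 49.3%). Of 4 other LOG genes tested in roots, 3 rose with starvation (33.1% of all probe sets did), with LOG8 at 1.17 ± 0.08 and LOG5 at 1.08 ± 0.11. In the overexpressor 1 of these 4 was higher (21.4% of all probe sets were). There 2 were lower (16.7% of all probe sets were), LOG5 (-0.89 ± 0.11) and LOG8 (-0.59 ± 0.08). With induction 1 of these 4 was called (43.9% of all probe sets were), LOG3 at -0.26 ± 0.08, beside the rises of LOG1 and LOG7. In shoots 2 of 3 other LOG genes rose with starvation (27.8% of all probe sets did), LOG5 at 1.63 ± 0.14 and LOG8 at 0.97 ± 0.12, and in the overexpressor LOG3 was higher (0.39 ± 0.13) and LOG5 lower (-0.43 ± 0.14).

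Of the other oxidase genes 2 were tested per tissue. CKX6 fell in roots with starvation (-0.57 ± 0.11) and with induction (-0.75 ± 0.11) and was higher in the overexpressor (0.29 ± 0.11), and CKX1 was lower in the overexpressor (-0.26 ± 0.09) and rose with induction (0.31 ± 0.09). With induction CKX6 fell in shoots as well (-0.83 ± 0.11). IPT9, which encodes a tRNA-modifying isopentenyltransferase, fell in shoots with starvation (-0.83 ± 0.08) and with induction (-0.54 ± 0.08).

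Among other transport genes, the purine and cytokinin transporter gene AZG1 stood out in roots, where 4 were tested. It rose with starvation (0.55 ± 0.09, adjusted p = 3.14e-05), was lower in the overexpressor (-1.11 ± 0.09, adjusted p = 3e-09) and rose with induction (1.79 ± 0.09, adjusted p = 6.58e-13), the directions seen for LOG7. The purine permease gene PUP1 fell with starvation in roots (-0.47 ± 0.11) and rose in shoots (2.21 ± 0.13). Of the conjugation and base salvage genes 5 of 6 rose and 1 fell in starved roots, where 33.1% of all probe sets rose and 21.8% fell. The cytokinin N-glucosyltransferase gene UGT76C2 rose there (0.47 ± 0.07) and was lower in overexpressor roots (-0.39 ± 0.07) and shoots (-0.91 ± 0.09). In shoots 2 of 7 rose and 3 fell with starvation (54.1% of all probe sets called), 1 was higher and 1 lower in the overexpressor (51.3% called), and 1 rose and 4 fell with induction (49.3% called), with UGT85A1 at 1.55 ± 0.15.

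**Figure D5:**
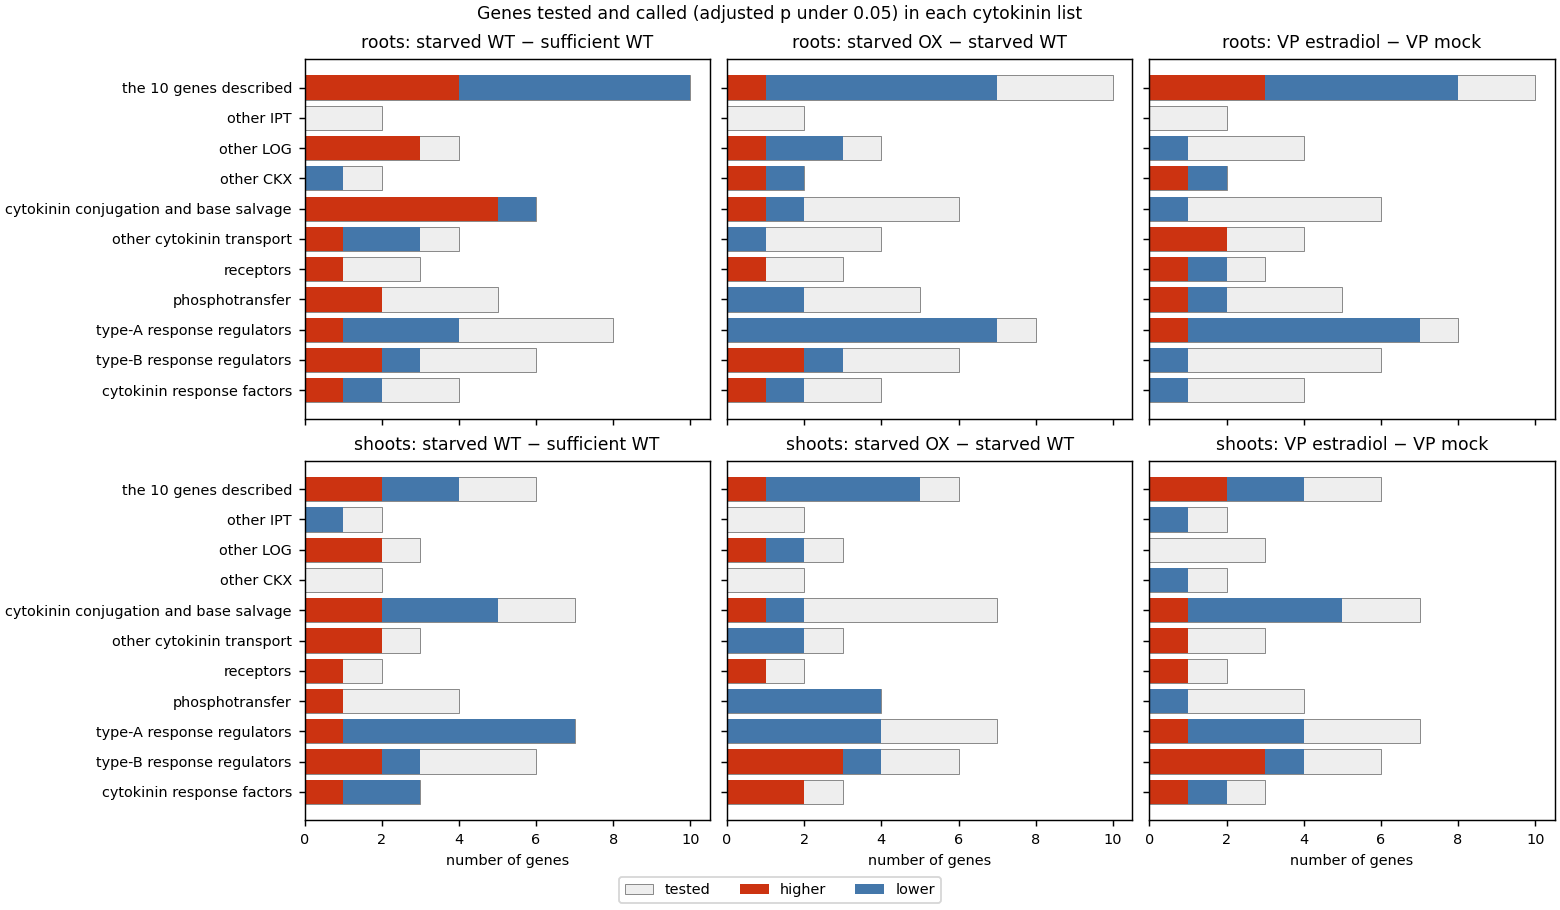
Number of genes tested (grey outline), called higher (red) and called lower (blue) in the 10 genes and in 10 lists of other cytokinin genes, by tissue and comparison. The 10 genes, chosen with earlier results of these data known, were all called with starvation in roots, where 54.8% of all probe sets were. In overexpressor roots 7 of 8 type-A response regulators were lower, as were 16.7% of all probe sets.

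The genes whose pattern over the 5 groups lay closest to the most variable member were found from centred group means, by the root mean square difference. For CYP735A2 in roots these were the bZIP gene AT1G68880 (0.27 log2 units), LBD38 (AT3G49940, 0.37), NRT1.1 (AT1G12110, 0.38), PEN1 (AT4G15340, 0.42) and GLYI4 (AT1G15380, 0.43). For LOG7 in shoots, whose group means spanned 3.51, these were MGD2 (AT5G20410, 0.13), AT1G13750 (0.20), AT1G19200 (0.21), G3Pp1 (AT3G47420, 0.24) and AT2G45220 (0.27). MGD2, a galactolipid synthase gene, lay at 5.28 in sufficient wild type, 5.78 in starved wild type, 4.40 in the overexpressor, 5.28 in mock and 7.97 with estradiol.

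The authors' deposited table called fewer of the 10 genes by its Benjamini-Hochberg values at 0.05: 4 in roots with starvation, 4 in overexpressor roots and 5 with induction in roots. By q-values the authors' deposited table called 9, 4 and 8 in the same order. In shoots the authors' deposited table called 0 with starvation, 1 in the overexpressor and 3 with induction by Benjamini-Hochberg values, and 2, 4 and 5 both by q-values and by unadjusted p-values. The limma calls in shoots were 4, 5 and 4, over the 6 genes tested.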

How the data were processed

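Shoots and roots were measured on 30 arrays, grouped by their titles. The replicates are termed biological there, with no word on separate cultures, so p-values cover the spread between arrays alone. The values are log2 expression made with RMA and deposited by the authors, per the file headers, while the submitters' processing notes name MAS5. The authors' deposited tables also hold log2 ratios with p-values, q-values and Benjamini-Hochberg adjustments. Their overexpressor ratios of the members have the opposite sign to the fold changes given here (LOG7 in roots 2.05 against -2.05), as wild type minus overexpressor. The series value table holds the same numbers. Each tissue's 15 arrays entered 1 limma model (version 3.58.1, R 4.3.3) with a term for every group and an intensity trend, on the 15922 of 22746 probe sets at or above the 30th percentile of the mean, with two-sided tests and Benjamini-Hochberg adjustment. The fit was tested on simulated data. The files used hold no detection calls, and the number of arrays limits the precision. Members were matched by locus through the tables' locus column, and other symbols came from a TAIR10.1 reference table. Where other genes had several probe sets matching them alone, the brightest stood for the gene. All members were named, and from each other list up to 2 called genes per comparison with the smallest adjusted p. The members and lists were chosen with earlier results of these data known. Alternatives covered the filter, the trend, the groups fitted, a replicate block, quantile normalization, the value table and each array left out. A test between tissues was planned on the value table and left out, because that table is not scaled alike over both tissues: its 1st percentile was 3.37 to 3.44 in shoots and 3.86 to 3.90 in roots.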

Additional observations from a re-analysis of the deposited data

Results flagged for a closer look

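ABCG14 had fold changes of opposite sign in the 2 tissues after AtNIGT1.2-VP induction, without overlap between mock and estradiol arrays in either. In shoots mock was already 0.77 above sufficient wild type. The log2 fold change was -0.58 in shoots and 0.078 in roots, where it did not pass (adjusted p = 0.25). The difference between the tissues was not tested.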

How the results depend on the processing

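Of 43 calls on single members, 37 were kept under all alternatives run and 6 were lost under at least 1; these 6 are given beside their results, as are the 2 values that passed only without 1 array. No alternative reversed a called member. All 96 alternative counts of members called lay within 1.5 times the main count, as did 94 of 96 counts over all probe sets. The exceptions were in mock-treated VP roots against wild type, where 2893 probe sets were called, 1847 with only those 2 groups in the fit, and 1612 to 3086 when 1 array was left out, the lowest without mock array 1; the cause was not tested. Replicate numbers did not pair the arrays: correlations of same-numbered deviations ran from -0.46 to 0.18, and 1 of 15 shoot and 5 of 15 root arrays correlated best with their own number. With the replicate number as a block, the count of members called changed in 1 of 8 comparisons, mock against wild type shoots, from 3 to 2, and 8378 probe sets were called with starvation in shoots and 8693 in roots. Each member had 1 probe set, so averaging probe sets could change nothing. The value table gave the same values by construction. Genes near the filter value have signals close to the low end of the arrays, so their fold changes may be too small.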

Other observations

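Of 8 type-A response regulators tested in roots, which cytokinin induces, 7 were lower in the overexpressor (16.7% of all probe sets were), with ARR3 at -1.70 ± 0.09, and 6 fell and 1 rose with induction (28.3% and 15.6% of all probe sets), with ARR7 at -0.83 ± 0.09 and ARR6 at -0.78 ± 0.07. In starved roots ARR3 rose (1.18 ± 0.09) and 3 others fell, where 33.1% of all probe sets rose and 21.8% fell. In shoots 6 of 7 fell and 1 rose with starvation (26.3% and 27.8% of all probe sets), and 4 were lower in the overexpressor (20.7%). With induction in shoots 3 fell and 1 rose (25.5% and 23.8%), with ARR9 at -1.50 ± 0.11 and ARR15 at 0.85 ± 0.14. Without estradiol, 5 of the 7 were already below sufficient wild type in shoots of the VP line (15.8% of all probe sets were), with ARR6 at -1.51 ± 0.18 and ARR7 at -0.997 ± 0.123.

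Of the phosphotransfer genes, which relay the signal from receptor to nucleus, AHP1 was lower in overexpressor roots (-1.15 ± 0.07) and fell with induction (-0.61 ± 0.07), while AHP5 rose with induction (1.13 ± 0.07). All 4 tested in shoots were lower in the overexpressor, as were 20.7% of all probe sets, with AHP5 at -0.28 ± 0.07 and AHP1 at -0.40 ± 0.11. Among the 3 receptor genes in roots, the histidine kinase gene AT1G27320 rose with induction (0.71 ± 0.07) and WOL fell (-0.33 ± 0.08). In overexpressor shoots the receptor gene AT5G35750 was higher (1.07 ± 0.18). Of 6 type-B response regulators tested in roots, which activate transcription, starvation raised 2 and lowered 1, ARR11 (-0.96 ± 0.12), where 54.8% of all probe sets were called, and 2 were higher and 1 lower in overexpressor roots, where 38.1% were. In starved roots 1 of 3 receptor, 2 of 5 phosphotransfer and 2 of 4 response factor genes were called, each a share below 54.8%. Of 4 cytokinin response factors in roots, CRF2 rose with starvation (0.56 ± 0.12) and CRF6 fell (-0.26 ± 0.09).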
